A study of Mus musculus with 9 samples.

Results

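The genes described here are 9 markers of scavenging and border macrophages: Mrc1, Cd163, Cd36, Msr1, Lyve1, Pf4, F13a1, Stab1 and Folr2. They were chosen by symbol, and all 9 were found among the 55401 genes of the deposited table. RNA came from wild-type mouse tissue around a cortical infarct at day 28 after photothrombosis (PT), in which light acting on a photosensitive dye closes vessels. Sham-operated mice and PT mice were given ultrapure water. A further PT group was gavaged with Pushen, an approved drug dissolved in that water, from 24 h after surgery for 28 days, at labelled doses of 391, 392 and 393 mg/kg in libraries 1, 2 and 3. These labels rise by 1 from library to library and may be an entry error, so the 3 libraries were treated as 1 group. Each group held 3 libraries, and the labels do not say whether these were separate or pooled animals. The tests below therefore weigh differences against the spread of libraries alone, and that spread may be technical. The labels give the tissue as brain, while their extraction protocol names retinas. Levels of neuronal genes are given as FPKM (fragments scaled to gene length and library size). Over the 9 libraries Rbfox3 stood at 42.6 to 64.4 FPKM, and the glutamate transporter gene Slc17a7 at 139 to 313 FPKM. Neurons of brain and of retina can both express these genes, so their levels do not decide between the labelled tissues. Rbfox3 was lower in PT than in sham (46.7 against 61.3 FPKM, edgeR adjusted p = 0.0158).

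Brain macrophages other than microglia live at the borders: in the meninges, in the choroid plexus and along penetrating vessels. Scavenger receptors on such cells bind and internalise modified lipoproteins, glycoproteins, haemoglobin complexes and debris. Monocytes that enter injured tissue can take on many of the same receptors, so these genes mark a programme of uptake rather than 1 origin. In bulk tissue, more cells of a type and more RNA per cell cannot be told apart.

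The 9 genes fall into 3 roles. The first is lipid and protein scavenging: Cd36 (a class B scavenger receptor that binds oxidised lipid and long-chain fatty acids), Msr1 (the class A receptor for modified lipoprotein) and Stab1 (stabilin-1, an endocytic receptor also found on sinusoidal endothelium). The second is uptake of defined cargo: Mrc1 (the mannose receptor), Cd163 (the receptor for haptoglobin-haemoglobin complexes), Folr2 (folate receptor beta) and Lyve1 (a hyaluronan receptor shared with lymphatic endothelium). The third is secreted products: Pf4 (the chemokine CXCL4) and F13a1 (the A subunit of clotting factor XIII), both also known from platelets.

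The deposited positions of all 9 genes equal those of GENCODE M21 on build GRCm38. Mrc1 (ENSMUSG00000026712, plus strand) spans 14229392 to 14332057 of chromosome 2, and Cd163 (ENSMUSG00000008845, plus strand) 124304656 to 124330527 of chromosome 6. Cd36 (ENSMUSG00000002944, minus strand) and Pf4 (ENSMUSG00000029373, plus strand) lie on chromosome 5, from 17781690 to 17888801 and from 90772435 to 90773383. Lyve1 (ENSMUSG00000030787) and Folr2 (ENSMUSG00000032725) lie on the minus strand of chromosome 7, from 110850607 to 110863239 and from 101839988 to 101857194. Msr1 (ENSMUSG00000025044) lies on chromosome 8 from 39581685 to 39642673, F13a1 (ENSMUSG00000039109) on chromosome 13 from 36867178 to 37050244 and Stab1 (ENSMUSG00000042286) on chromosome 14 from 31139013 to 31168641, each on the minus strand. Stab1 overlaps Nt5dc2 on the opposite strand (4977 counts over the 9 libraries against 26715 for Stab1). Folr2 overlaps the antisense gene Gm10602 (898 counts against 1283 for Folr2). Strand use in counting is not given in the sources used here, so reads of these overlapping pairs may be shared.

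Because the 9 genes were high in the same libraries, their start regions were searched for 3 motifs of macrophage factors, each on both strands. The RefSeq table (build GRCm38.p6) held start regions, from 250 bases before to 50 bases after a start, for 7 of the 9 genes (9 starts). The PU.1 core GAGGAA was found for 4 of the 7 genes (Mrc1, Stab1, F13a1 and Pf4), in 5 of 9 starts, and in 28.3% of 32851 start regions of the same length. The AP-1 site TGANTCA was found for 1 gene, Folr2, against 7.81% of all start regions, and the MAF site letters TGCTGAC for 0 of 7 against 4.67%. No motif overlapped another. A match is a description of the letters and not a bound site. The Mrc1 region (chr2:14229164-14229463, plus strand) and the Stab1 region (chr14:31168592-31168891, minus strand) are shown because they hold the PU.1 core. The Folr2 region (chr7:101845282-101845581, minus strand, an internal start) holds the AP-1 site, and the Cd36 region (chr5:17835847-17836146, minus strand, also internal to the gene) held none of the 3. Capitals mark the motif on either strand, 5′ to 3′ on the gene's strand.
Mrc1: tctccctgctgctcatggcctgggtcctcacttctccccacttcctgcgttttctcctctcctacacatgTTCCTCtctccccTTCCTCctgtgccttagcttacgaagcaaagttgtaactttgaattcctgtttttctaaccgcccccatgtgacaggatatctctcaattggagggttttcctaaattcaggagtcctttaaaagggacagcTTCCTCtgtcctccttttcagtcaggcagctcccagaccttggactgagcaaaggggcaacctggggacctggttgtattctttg
Stab1: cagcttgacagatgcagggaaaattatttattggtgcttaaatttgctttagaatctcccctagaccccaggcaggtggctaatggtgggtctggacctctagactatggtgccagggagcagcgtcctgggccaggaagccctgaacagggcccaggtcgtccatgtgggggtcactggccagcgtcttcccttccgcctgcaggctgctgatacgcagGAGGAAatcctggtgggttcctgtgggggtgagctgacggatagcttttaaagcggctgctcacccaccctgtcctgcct
Folr2: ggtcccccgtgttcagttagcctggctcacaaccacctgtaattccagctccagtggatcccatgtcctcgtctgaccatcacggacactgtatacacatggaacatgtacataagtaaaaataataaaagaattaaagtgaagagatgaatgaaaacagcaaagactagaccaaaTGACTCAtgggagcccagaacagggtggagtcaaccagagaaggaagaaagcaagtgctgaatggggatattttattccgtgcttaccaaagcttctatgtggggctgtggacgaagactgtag
Cd36: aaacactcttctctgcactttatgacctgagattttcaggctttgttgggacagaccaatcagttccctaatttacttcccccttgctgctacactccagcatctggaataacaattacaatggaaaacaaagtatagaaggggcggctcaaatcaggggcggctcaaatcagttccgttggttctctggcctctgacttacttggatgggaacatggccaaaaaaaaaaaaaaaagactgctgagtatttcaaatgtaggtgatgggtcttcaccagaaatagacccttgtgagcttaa

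In sham tissue the 9 genes were at low levels. On the FPKM scale, which corrects for gene length, Stab1 led at 1.21 ± 0.10 (SD, n = 3), followed by Pf4, Mrc1, Cd163, F13a1, Lyve1, Cd36, Msr1 and Folr2 at means from 0.370 down to 0.0200. Of the 8 neighbouring pairs in this order, 6 overlapped in their library ranges. Stab1 stood apart from Pf4, and Mrc1 apart from Cd163. In PT the order was Stab1, Cd36, Mrc1, Folr2, Pf4, Msr1, F13a1, Lyve1 and Cd163, and only Cd36 and Mrc1 were neighbours whose ranges did not overlap. Cd36 and Folr2, both among the lowest 3 in sham, were thus among the highest 4 in PT. Deposited FPKM have 2 decimals, so the lowest sham values are coarse, and counts are given for them.

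**Figure D1:**
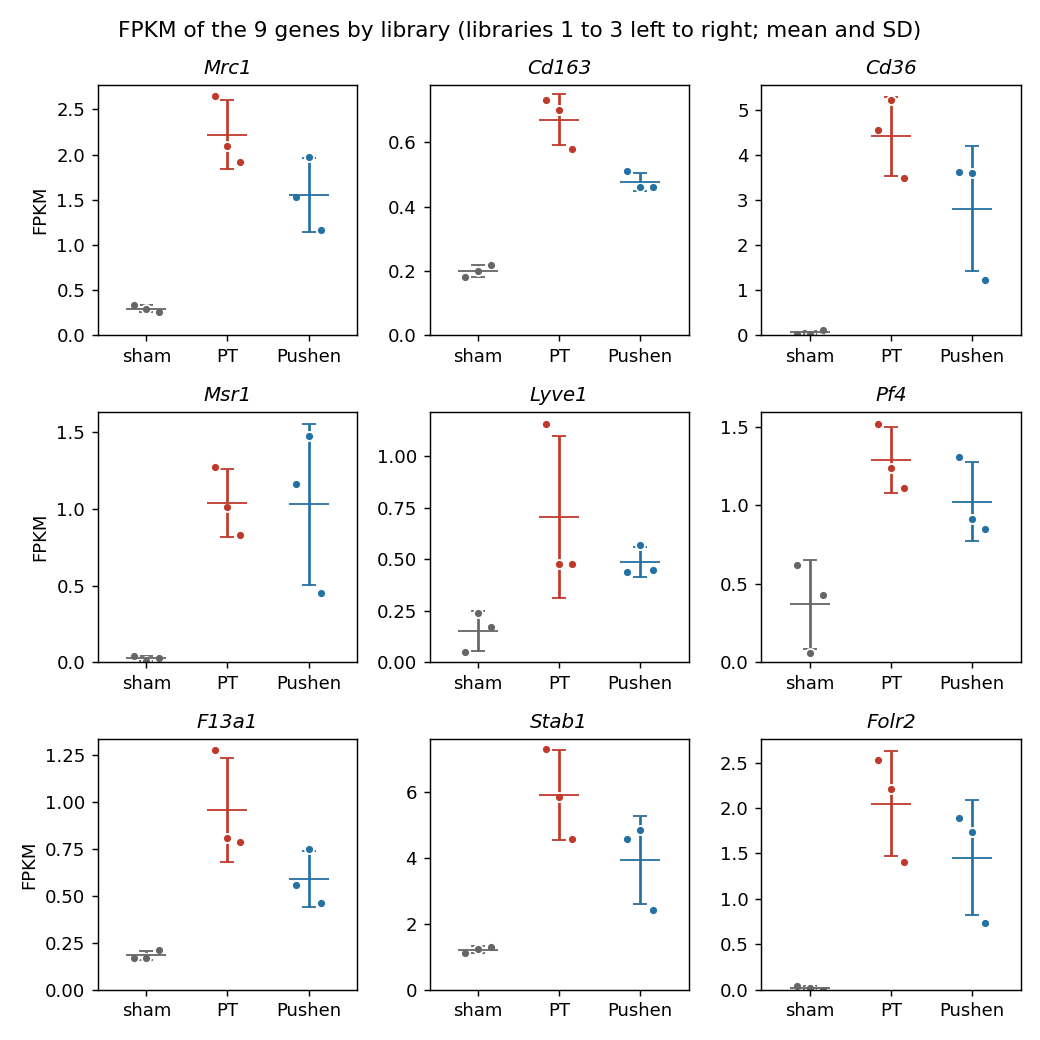
FPKM (y axis, linear, separate scale per gene) of the 9 genes in each library of the 3 groups; points are libraries 1 to 3 from left to right, horizontal lines are means and bars are SD. In every panel the lowest PT library lies above the highest sham library.

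PT was compared with sham to ask how these genes differed around the infarct, using edgeR's quasi-likelihood test on counts with Benjamini-Hochberg adjustment, adjusted p under 0.05 being called. All 3 PT libraries lay above all 3 sham libraries for each of the 9 genes, a separation seen in 29.3% of 16740 tested genes. Of the 7 genes above the filter of 0.5 mean FPKM, 6 rose and Pf4 did not pass, where 30.9% of all tested genes were called and 19.1% were called higher. Cd163 and Lyve1, each with a mean of 0.449 FPKM, lay just below that filter. Of the 7 above it, 6 had a sham mean under 0.5 FPKM and passed only through the infarct groups, so this count is partly set by the filter and is given as a description. In a fit without it both rose, where 9.18% of 35527 genes were called higher. Over the 9 genes the log2 fold changes ran from 1.66 to 6.26 with a median of 2.35, against a median of -0.0029 over all tested genes.

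The lipid scavenger receptors Cd36 and Msr1 had some of the steepest differences. Cd36 stood at 0.04, 0.04 and 0.11 FPKM in sham libraries 1 to 3 (12, 14 and 33 counts) and at 4.55, 5.21 and 3.48 FPKM in PT. It rose by 5.92 ± 0.54 on the log2 scale (SE; adjusted p = 0.000449), a fitted 60.5-fold difference with a 95% interval from 25.8 to 142. Sham library 3 was the highest of its group, and without it the log2 fold change was 6.52. Msr1 stood at 0.04, 0.01 and 0.03 FPKM in sham (20, 8 and 14 counts) and at 1.27, 1.01 and 0.83 FPKM in PT. It rose by 5.13 ± 0.52 (adjusted p = 0.000467), or 35.0-fold (interval 15.4 to 79.5). Stab1 was at 1.10, 1.24 and 1.30 FPKM in sham and at 7.30, 5.86 and 4.59 FPKM in PT. Its rise was smaller, 2.22 ± 0.26 (adjusted p = 0.000666), or 4.67-fold (3.10 to 7.03), and its interval did not reach those of Cd36 and Msr1.

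Among receptors for defined cargo, Folr2 differed most. It had 6, 3 and 0 counts in sham libraries 1 to 3 and 320, 294 and 160 in the PT libraries, where it stood at 2.53, 2.21 and 1.41 FPKM. The log2 fold change was 6.26 ± 0.71 (adjusted p = 0.000595), with a wide interval of 25.3- to 233-fold since sham held 9 counts in all, and it was 7.26 without sham library 1. Folr1, the neighbouring receptor gene known from choroid plexus, stood at 2.02, 0.27 and 0.26 FPKM in the PT libraries. Mrc1 was at 0.34, 0.29 and 0.26 FPKM in sham and 2.65, 2.09 and 1.92 FPKM in PT, tight in both groups. It rose by 2.84 ± 0.23 (adjusted p = 0.000446), or 7.14-fold (5.01 to 10.2). Cd163 was at 0.18, 0.20 and 0.22 FPKM in sham and 0.73, 0.70 and 0.58 FPKM in PT. Its rise of 1.66 ± 0.19 (adjusted p = 0.000533 without the filter), or 3.17-fold (2.38 to 4.22), was the smallest of the called genes, and its interval did not overlap that of Mrc1.

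Lyve1 was uneven. It stood at 0.05, 0.24 and 0.17 FPKM in sham and at 1.16, 0.48 and 0.48 FPKM in PT, with PT library 1 more than 2 times as high as the others. The log2 fold change was 2.09 ± 0.52 (adjusted p = 0.0246 without the filter). Leaving out PT library 1 ended the call (1.55, adjusted p = 0.0890), as did leaving out sham library 1 or 3 (adjusted p = 0.0554 and 0.0619), PT library 1 with Pushen library 2 (adjusted p = 0.118), or the Pushen group (adjusted p = 0.0584). PT library 1 also held 528 FPKM of the choroid plexus transcript Ttr and 20.6 FPKM of the striatal receptor Drd2, against 17.9 and 41.4 FPKM of Ttr in PT libraries 2 and 3. The part of such tissue in the Lyve1 value was not tested. Of 6 lymphatic endothelial genes 5 were tested, Pdpn rose (2.46 ± 0.30) and Reln fell (-0.41 ± 0.13, edgeR adjusted p = 0.0468). The 6 summed to 7.53 to 9.44 FPKM in sham and 17.3 to 27.1 FPKM in PT, but without Pdpn, which is not limited to lymphatic cells, to 4.75 to 7.07 and 7.49 to 9.38 FPKM. Reln and Prox1 are not limited to lymphatic cells either, as neurons also express them. Neither sum, nor the fall of Reln, therefore describes lymphatic cells alone. Mmrn1 stood at 0.39 FPKM in PT library 1 and at 0.01 in the other PT libraries.

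The secreted products differed from each other. F13a1 was at 0.17, 0.17 and 0.21 FPKM in sham and 1.28, 0.81 and 0.79 FPKM in PT, with no overlap. It rose by 2.35 ± 0.26 (adjusted p = 0.000559), or 5.09-fold (3.39 to 7.64). Pf4 was spread over 0.62, 0.06 and 0.43 FPKM in sham (36, 4 and 25 counts) and stood at 1.52, 1.24 and 1.11 FPKM in PT. Its log2 fold change of 1.68 ± 0.59 missed the threshold (adjusted p = 0.0599). The call was gained with DESeq2 (adjusted p = 0.0269), with limma on log2(FPKM + 0.1) (adjusted p = 0.0263), and without sham library 1 or 2 (log2 fold change 2.30 and 1.17, adjusted p = 0.0437 and 0.0445). As values beside these, 10 platelet markers summed to 1.99 to 2.30 FPKM in sham and 2.18 to 2.95 FPKM in PT, and the platelet-specific chemokine Ppbp was at 0, 0.24 and 0.09 FPKM in the PT libraries. Of the 10, Clec1b was called higher without a filter (0.0100 against 0.163 FPKM, edgeR adjusted p = 0.0107), and its part in the Pf4 and F13a1 values was not tested.

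**Figure D2:**
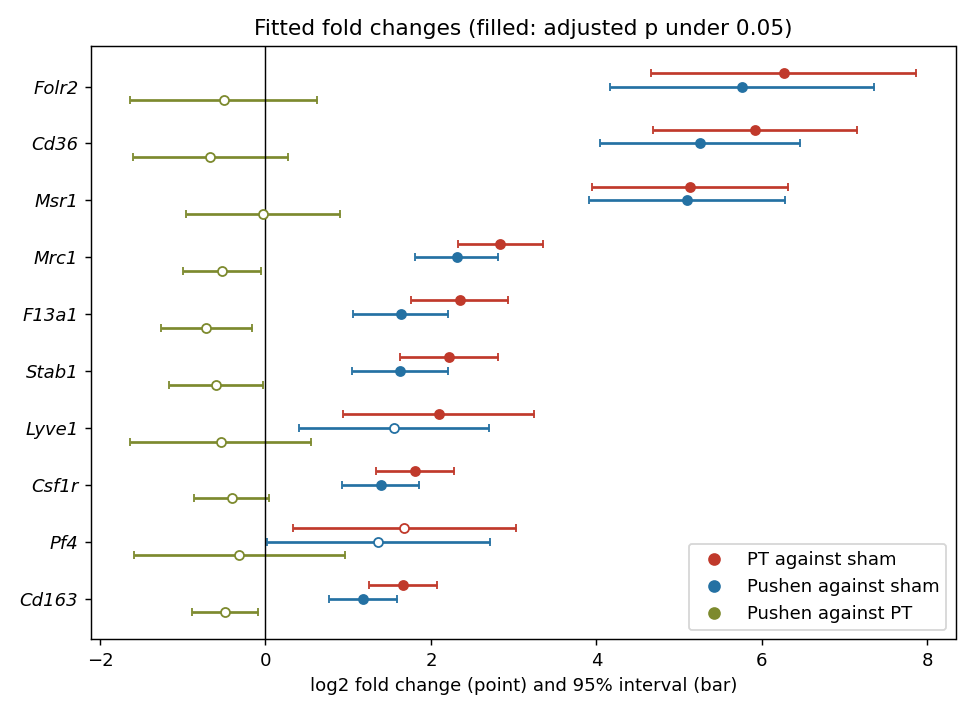
Fitted log2 fold change (points) with 95% intervals (bars) for the 9 genes and for Csf1r, in the 3 comparisons (colours); filled points had an adjusted p under 0.05. Folr2, Cd36 and Msr1 lie between 5.10 and 6.26 in both comparisons with sham, and all values of Pushen against PT are open points at or left of 0.

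Csf1r, the growth factor receptor carried by microglia and other macrophages, served as a reference for the amount of macrophage-lineage RNA. It stood at 9.87 ± 1.42 FPKM in sham and 35.9 ± 8.95 in PT (SD, n = 3 each), a log2 fold change of 1.80 ± 0.21 (adjusted p = 0.000628). Each gene's FPKM was then expressed as a percent of Csf1r FPKM in the same library, as a description, since 3 against 3 libraries cannot reach p under 0.10 by exact permutation. On this scale 6 of the 9 genes were still higher in all PT than in all sham libraries, as were 3.62% of tested genes. Cd36 went from 0.614 ± 0.298% of Csf1r in sham to 12.5 ± 2.39% in PT, Msr1 from 0.268 ± 0.158% to 2.91 ± 0.116%, and Folr2 from 0.219 ± 0.215% to 5.68 ± 0.571%. These are ratios of 20.4, 10.8 and 26.0. Mrc1 went from 3.07 ± 0.719% to 6.28 ± 0.645%, a ratio of 2.05.

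The other 5 genes kept closer to Csf1r. F13a1 went from 1.86 ± 0.0599% of Csf1r to 2.67 ± 0.322%, and Stab1 from 12.4 ± 1.47% to 16.5 ± 0.338%, both without overlap. Cd163 was at 2.04 ± 0.201% in sham and 1.91 ± 0.263% in PT, Lyve1 at 1.58 ± 1.10% and 1.90 ± 0.613%, and Pf4 at 3.69 ± 2.99% and 3.65 ± 0.363%. For these 3 the groups overlapped. The reference matters: against the geometric mean of 11 homeostatic microglia genes, PT was 1.85, 2.30 and 2.13 times sham for Cd163, Lyve1 and Pf4, and the groups no longer overlapped for Cd163 and Pf4.

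**Figure D3:**
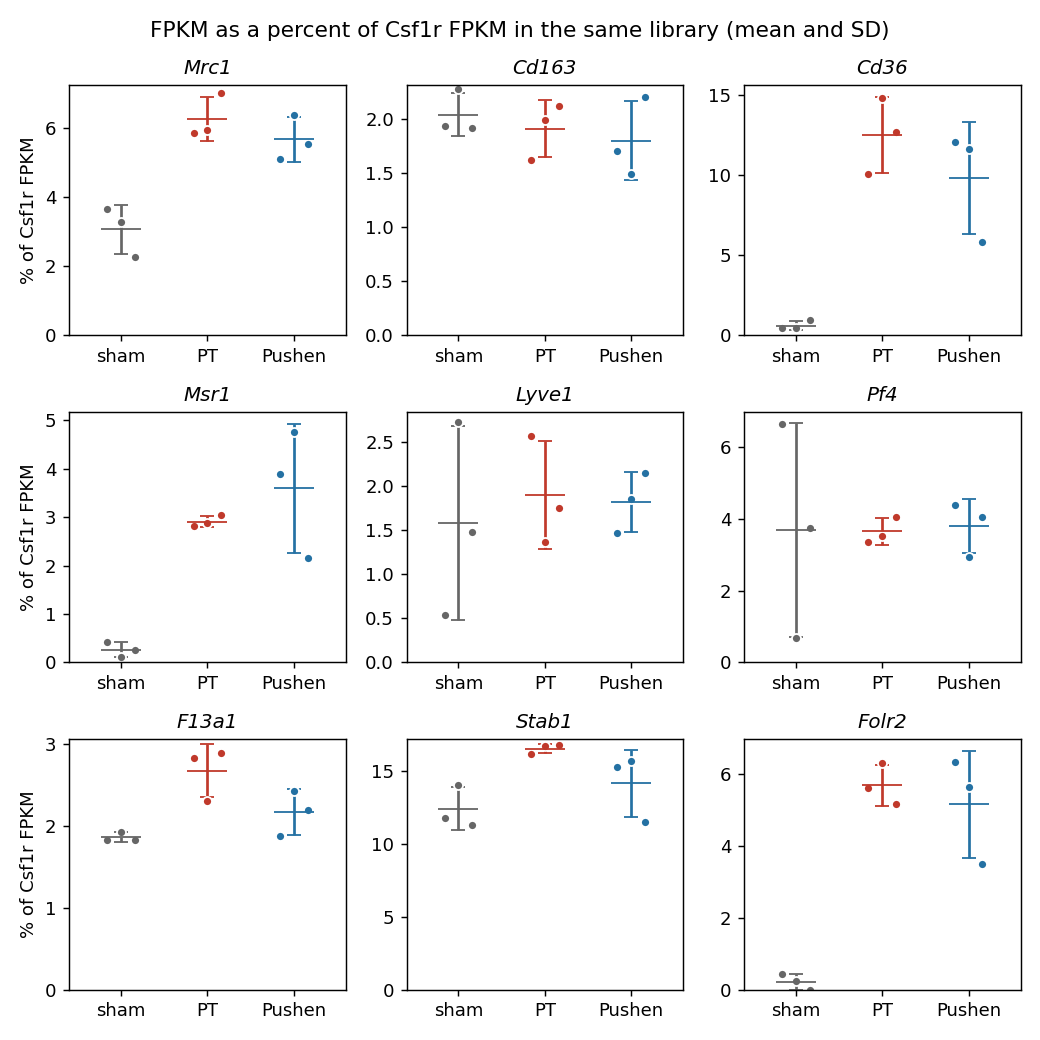
FPKM of each gene as a percent of Csf1r FPKM in the same library (y axis, linear, separate scale per gene) for the 3 groups; points are libraries 1 to 3 from left to right, lines are means and bars are SD. Cd36, Msr1 and Folr2 stand far above sham in PT and Pushen, while Cd163, Lyve1 and Pf4 overlap between sham and PT.

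Pushen was compared with PT to ask whether the treatment changed these genes, and this used the same PT libraries as the comparison of PT with sham. None of the 7 tested genes, and neither of the 2 below the filter, passed edgeR's quasi-likelihood test, where 0% of all tested genes were called. DESeq2 and limma also called 0 of the 9. Before adjustment, 4 genes had p under 0.05 (F13a1, Cd163, Mrc1 and Stab1), each lower with Pushen. Of all tested genes, 3.46% were lower at that level. Every one of the 9 fitted values was below 0, with a median of -0.52, where 51.7% of all tested genes lay below 0. This was not particular to the 9 genes. In lists described below, 10 of 12 tested other border macrophage genes and 10 of 12 other scavenger receptors also lay below 0. So did 10 of 10 haemoglobin and iron genes and 11 of 12 lipid genes, against 2 of 7 choroid plexus and 3 of 7 cortical neuron genes. The 9 values are not independent, since they come from the same 6 libraries.

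F13a1 was at 0.56, 0.75 and 0.46 FPKM with Pushen, below every PT library. Its log2 difference was -0.71 ± 0.24 (adjusted p = 0.707), with an interval from -1.27 to -0.16. Cd163 was at 0.51, 0.46 and 0.46 FPKM with Pushen, also below every PT library, at -0.49 ± 0.18 (adjusted p = 0.760, interval -0.89 to -0.08). Such a separation downward was seen for 2 of the 9 genes and in 5.19% of all tested genes. Mrc1 was at 1.53, 1.97 and 1.16 FPKM, overlapping PT, at -0.52 ± 0.21 (adjusted p = 0.707), a 0.696-fold level with an interval from 0.501 to 0.966. Stab1 was at 4.57, 4.84 and 2.41 FPKM, at -0.60 ± 0.25 (adjusted p = 0.707, interval -1.16 to -0.03), and overlapped through Pushen library 2. Per Csf1r, Stab1 was the 1 gene of the 9 with all Pushen libraries below all PT libraries (14.2 ± 2.30% against 16.5 ± 0.338%), as were 0.269% of tested genes. Against the microglia genes as the reference, Stab1 overlapped (0.775 times PT) and Cd163 was the gene with all Pushen libraries below (0.837 times PT).

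The remaining 5 genes had wider intervals. Cd36 was at 3.62, 3.59 and 1.22 FPKM with Pushen and differed from PT by -0.66 ± 0.42 (interval -1.61 to 0.28). Folr2, at 1.89, 1.74 and 0.73 FPKM, differed by -0.51 ± 0.50 (interval -1.63 to 0.62). Msr1, at 1.16, 1.47 and 0.45 FPKM, had a near-equal mean to PT and a difference of -0.03 ± 0.41 (interval -0.96 to 0.90). Lyve1, at 0.44, 0.57 and 0.45 FPKM, and Pf4, at 1.31, 0.91 and 0.85 FPKM, differed by -0.54 ± 0.49 and -0.31 ± 0.56. For Msr1 the interval spans 0.516- to 1.87-fold.

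The libraries of a group did not contribute evenly. Pushen library 3 had the lowest value of the 6 infarct libraries for 8 of the 9 genes (for Cd163 tied with Pushen library 2), the exception being Lyve1. The same library was lowest for 67.0% of all genes that rose in PT against sham, and its Csf1r stood at 20.9 FPKM against 27.4 to 45.2 in the other infarct libraries. PT library 1 was the highest for 7 of the 9. Relative to the mean of the PT libraries, Pushen library 3 lay 1.82 log2 units lower for Cd36 and 1.38 lower for Folr2, but only 0.50 lower for Cd163. Without Pushen library 3, the difference of Pushen from PT was -0.31 for Cd36, -0.20 for Folr2, -0.35 for Stab1, -0.36 for Mrc1 and 0.32 for Msr1. For Cd163 and F13a1 it was -0.48 and -0.57. Without PT library 1 the values for Msr1 and Lyve1 also turned above 0, at 0.14 and 0.0066.

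**Figure D4:**
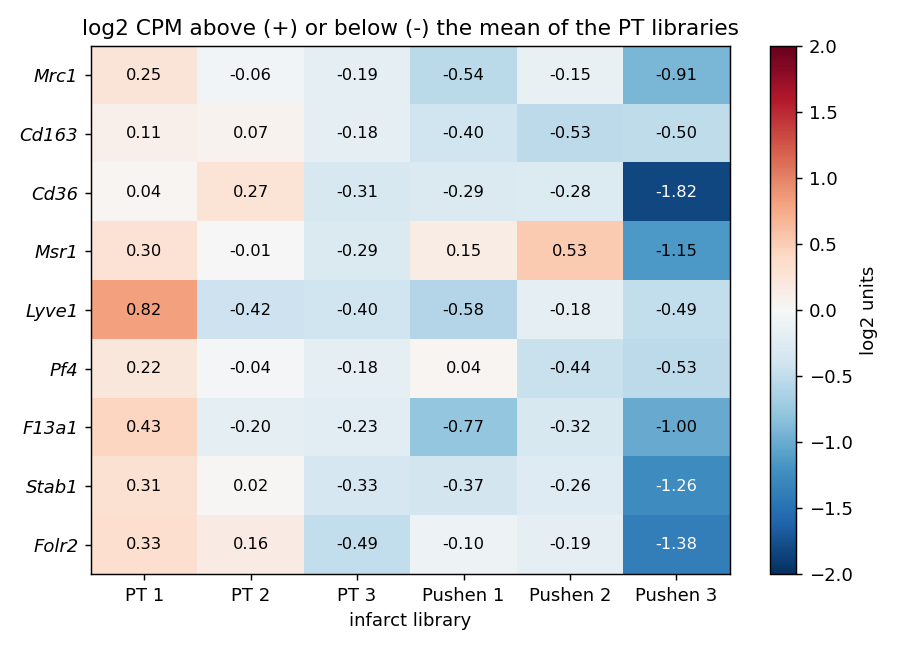
Log2 CPM (counts scaled to library size) of each gene (rows) in the 6 infarct libraries (columns), as the difference from the mean of the 3 PT libraries; red is higher and blue is lower. Pushen library 3 holds the deepest blue for Cd36 (-1.82), while Cd163 is between -0.40 and -0.53 in all 3 Pushen libraries.

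Pushen was also compared with sham, using the same sham libraries as the comparison of PT. All Pushen libraries lay above all sham libraries for each of the 9 genes (27.2% of tested genes did so). Of the 7 genes above the filter 6 were higher (13.5% of tested genes were), and of the 2 below it Cd163 was higher without the filter (6.46% of genes were). The log2 fold changes were 5.76 ± 0.70 for Folr2, 5.25 ± 0.53 for Cd36, 5.10 ± 0.52 for Msr1 and 2.31 ± 0.22 for Mrc1. They were 1.64 ± 0.25 for F13a1, 1.62 ± 0.26 for Stab1 and 1.18 ± 0.18 for Cd163 (edgeR adjusted p from 0.000546 to 0.00385 over these 7). Without sham library 1 Folr2 was at 6.75, and without sham library 3 Cd36 was at 5.86. Lyve1 (1.55 ± 0.51, adjusted p = 0.113) and Pf4 (1.36 ± 0.59, adjusted p = 0.152, and 1.99 and 0.86 without sham library 1 and 2) did not pass. For Lyve1, called in PT and not in Pushen, the direct difference between Pushen and PT had an adjusted p of 0.810. Per Csf1r, 4 of the 9 genes stood above sham in all Pushen libraries (3.76% of tested genes).

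Other genes of the same programmes were read from lists, and are described by their counts. For all list counts below, the share of all tested genes called higher in PT against sham was 19.1%, and 9.18% without a filter. A tested gene with a low sham level passed the filter only through the infarct groups, so counts and medians over tested genes are partly set by the filter; for lists where this touches at least 3 genes, the count without a filter is given too. Of 20 further border macrophage genes 12 were tested, and 11 rose in PT (median log2 fold change 3.19). Of the 12, 6 had a sham mean under 0.5 FPKM, and without a filter 15 of 20 were called higher (median 2.70). They included Siglec1, a sialic acid-binding receptor (6.86 ± 0.69), Ms4a7 (6.75 ± 0.76), the matrix protein Tgfbi (3.46 ± 0.34) and the C-type lectin Clec4n (4.50 ± 0.47). The transcription factor Maf was not called. Of the list's genes below the filter, some were near 0: Timd4 had 0 FPKM in sham and at most 0.09 in PT, Cd209g at most 0.07 and Mgl2 at most 0.16 in any library. The others, Clec10a, Ccr1, Fcna, Ccl24 and Cd209f, were also low but stood higher in every PT than in every sham library. Clec10a was at 0.16, 0.09 and 0.11 FPKM in sham and 0.48, 0.90 and 0.45 FPKM in PT. Of 16 other scavenger receptors and related proteins 12 were tested and 10 rose (median 1.10), and 6 were called without sham library 2. Of the 12, 3 had a sham mean under 0.5 FPKM, and without a filter 11 of 16 were called higher (median 1.36). Cd68 (3.97 ± 0.38) and Cxcl16 (4.14 ± 0.38) were among them, while Marco was at or below 0.05 FPKM in every library. Cd5l, a secreted scavenger protein of macrophages, was singled out after its values were seen. It went from 0, 0.49 and 0.18 FPKM in sham to 77.0, 100.6 and 90.8 FPKM in PT (8.55 ± 1.17, adjusted p = 0.00118, and 9.84 without sham library 2), and Pushen libraries 1 to 3 held 94.7, 81.2 and 8.60 FPKM.

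Genes of the paths around these receptors, ligands among them, also differed. Of 10 genes of haemoglobin and iron clearance, the path fed by Cd163, 6 rose (median 1.51). They included Hmox1, which opens the haem ring (3.20 ± 0.40), the ferritin light chain Ftl1 (2.38 ± 0.30) and the phagosomal metal transporter Slc11a1 (3.82 ± 0.42). Of 12 genes of lipid loading and efflux, the path fed by Cd36 and Msr1, 10 rose (median 1.86). The lipid droplet coat Plin2 was at 3.50 ± 0.42 and the fatty acid carrier Fabp4 at 6.04 ± 0.72. Pparg, a nuclear receptor known to drive Cd36 in macrophages, was at 0.02 ± 0.15 (adjusted p = 0.935), with levels of 1.55 to 1.79 FPKM in sham and 1.53 to 2.01 in PT; its sign turned without the filter and without sham library 2 or PT library 3. Of 5 tested genes among the ligands and signalling partners of CD36, 4 rose (median 1.86), with the ligand Thbs1 at 3.31 ± 0.44.

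Of 10 genes of the synthesis and binding of hyaluronan, the ligand of Lyve1, 6 were tested. Of these, 3 rose (median 0.54), 1 of them without sham library 1 or without sham library 2. The 3 were Cd44, Tnfaip6 and Hyal1, and no synthase gene was among them. Has1, Has2 and Has3, the synthase genes, lay below the filter. Has2 stood at 0 to 0.04 FPKM in sham and 0.14 to 0.18 FPKM in PT, while Has1 and Has3 overlapped. The amount of ligand was not tested. The hyaluronan receptor Cd44 stood out at 4.35 ± 0.42. Of 12 clotting and transglutaminase genes 6 were tested and all 6 rose (median 1.90), with the transglutaminases Tgm1 and Tgm2 at 6.17 ± 0.72 and 1.95 ± 0.26. Without a filter 7 of the 12 were called higher (median 1.16). The fibrinogen genes Fga, Fgb and Fgg lay below the filter and overlapped between sham and PT. Fga was at 0, 0 and 0.85 FPKM in sham and 1.08, 0.86 and 0 FPKM in PT. Of 14 signals and targets of alternative activation 8 were tested and 6 rose (median 1.71), including the receptors Il10ra (2.58 ± 0.31) and Il10rb (1.80 ± 0.25). The signals themselves did not rise with them. Il4 was not called (-0.38), at 2.08 to 2.49 FPKM in sham and 1.59 to 2.01 FPKM in PT. Il10 was at 0 in all libraries but PT library 1 (0.07 FPKM), and Il13 in all but sham library 1 (0.04 FPKM). The classical mouse target Retnla was at 0 in all libraries but PT library 2 (0.13 FPKM), and Arg1 was at most 0.48 FPKM. Chil3, another such target, was also low but separated, at 0.21, 0.17 and 0.11 FPKM in sham and 0.53, 0.73 and 0.58 FPKM in PT. Of 10 tested growth factors and transcription factors of macrophages 9 rose (median 1.67), with Spi1, which encodes PU.1, at 3.11 ± 0.30 and Runx1 at 3.37 ± 0.35. In all of these lists together, 0 tested genes were called between Pushen and PT. The border macrophage enzyme Cbr2 was at -1.08 ± 0.48 there (adjusted p = 0.707).

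Markers of other cells moved in the same comparison, and their part in the values of the 9 genes was not tested. Of 6 tested monocyte genes 5 rose (median 2.06), with Ly6c2 at 2.57 ± 0.28. Of the 6, 3 had a sham mean under 0.5 FPKM, and without a filter 7 of 10 were called higher (median 2.50). The list summed to 9.82 to 10.6 FPKM in sham and 25.2 to 38.3 FPKM in PT. Of 11 homeostatic microglia genes 7 rose (median 0.76), 4 without sham library 2, sham library 3 or PT library 1. Their sum was 55.7 to 77.3 FPKM in sham and 138 to 209 FPKM in PT, with Tmem119 at 1.32 ± 0.15. All 9 meningeal fibroblast genes rose (median 2.12), with Col1a1 at 4.42 ± 0.45, and the sum went from 16.1 to 18.0 FPKM in sham to 91.5 to 143 FPKM in PT. The neuronal genes Snap25 (-0.75 ± 0.15), Gad1 (-0.53 ± 0.10) and Rbfox3 (-0.45 ± 0.11) fell (edgeR adjusted p from 0.00457 to 0.0158). Of 8 blood endothelial genes 6 rose (median 0.55), 3 without sham library 2. The red cell genes summed to 108 to 199 FPKM in sham and 46.0 to 224 FPKM in PT, and 0 of the 5 tested were called. Choroid plexus genes summed to 549 FPKM in PT library 1 and 631 in Pushen library 2, against at most 152.5 FPKM in the other libraries. Without those 2 libraries, Cd36, Msr1, Folr2, Mrc1, Stab1 and F13a1 were all still called in PT against sham. Lyve1 and Pf4 were not called there (edgeR adjusted p = 0.118 and 0.175). PT libraries 2 and 3 still summed to 22.2 and 48.4 FPKM of choroid plexus genes, against 3.78 to 19.0 FPKM in sham. The part of such tissue in these values was not tested.

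**Figure D5:**
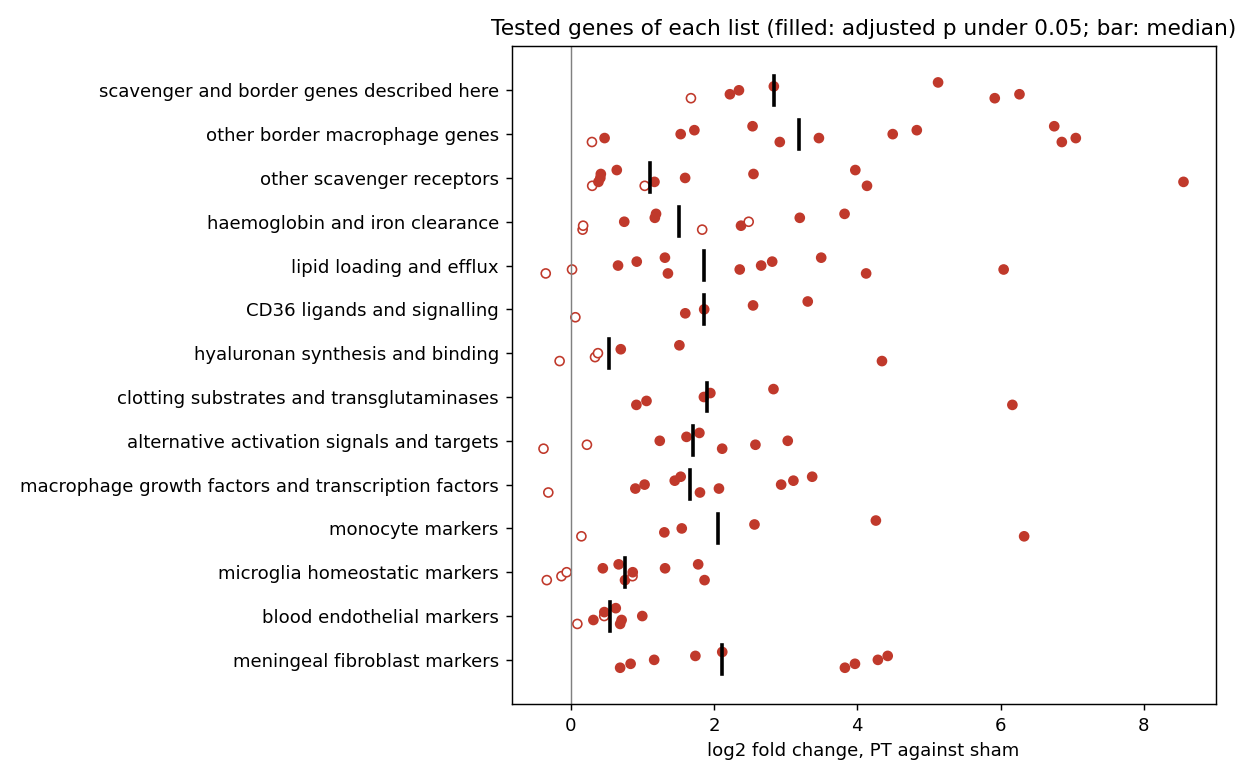
Log2 fold change of PT against sham (x axis) for the tested genes of each list (rows); filled points had an adjusted p under 0.05, and the black bar is the median. The 7 tested genes described here have a median of 2.84, close to the 3.19 of the other border macrophage genes.

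The genes with the most similar patterns were found for each of the 7 tested members, by the root mean square difference of centred log2 CPM over the 9 libraries, and this is a description of these libraries only. Stab1 was nearest to Zfp36, Rhbdf2 and Akna (0.10, 0.14 and 0.14 log2 units). F13a1 was nearest to Slc37a2, Nfkb2 and Itpripl1 (0.15, 0.16 and 0.17), and Mrc1 to Elf4 and Aebp1 (0.15 and 0.17). Cd36 lay nearest to the B cell lectin Cd22, Gimap3 and the NADPH oxidase subunit Cybb (0.25, 0.30 and 0.31). Msr1 lay nearest to Pirb, Ms4a6c and the collagen Col3a1 (0.31, 0.33 and 0.34). For Folr2 and Pf4 the nearest genes were farther off, Hcar2 at 0.42 and Rhod at 0.35.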

How the data were processed

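Total RNA was taken with Trizol and made into TruSeq libraries (labels' protocols). For each gene the authors deposited a raw read count and an FPKM value. Bowtie 0.12.2 and build mm8 stand in the submitters' processing notes; the table's coordinates equal GENCODE M21 (GRCm38) for 51957 of 55141 shared genes, 94.2%. The counter is not given in the sources used here. Library totals were 66775462 to 72646409 counts in sham, 64482908 to 75100133 in PT and 57437342 to 73499628 in Pushen, and replicate libraries differed beyond counting noise (chi-square per gene 47.5 to 168).

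The 16740 genes whose FPKM averaged 0.5 or more were fitted over all 9 libraries with edgeR 4.0.16 (R 4.3.3, trimmed mean of M values scaling, quasi-likelihood test), p-values being adjusted over all tested genes by Benjamini-Hochberg. Cd163 and Lyve1 were taken from a fit of 35527 genes with a count. SE was derived from the F statistic. On simulated data 55.2% of 2-fold changes and 5.97% of 1.5-fold changes were found for PT against sham (2 false calls among 16740 genes). For Pushen against PT, 59.7% of 2-fold and 11.9% of 1.5-fold changes were found (7 false calls). Fitted levels of the 9 genes with Pushen were from 1.02-fold (Msr1) to 1.64-fold (F13a1) lower than in PT. The 9 genes, 23 lists (216 genes, 156 tested) and tests were chosen with earlier results of these data known. Named list genes are those of smallest p, up to 4 per list in PT against sham and 2 in Pushen against PT; others named were chosen as references or after their values were seen. Some genes that this rule or the lists hold are not reported here. Figures were drawn with matplotlib 3.10.9.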

Additional observations from a re-analysis of the deposited data

How the results depend on the processing

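For Cd36, Msr1, Folr2, Mrc1, Stab1, F13a1 and Cd163, the call in PT against sham and in Pushen against sham was kept under every alternative that gave a value, and no gene of the 9 was called in Pushen against PT under any. The alternatives were other filters and scalings, DESeq2 1.42.0, limma 3.58.1 on log2(FPKM + 0.1) and log2(FPKM + 1), only the groups compared, a replicate block, and leaving out libraries. Lyve1 and Pf4 changed call as given above; Lyve1 was also lost with limma on log2(FPKM + 1) (adjusted p = 0.0568), which called Pf4 in PT (0.0108) and in Pushen (0.0486) against sham, and DESeq2 called Lyve1 in Pushen against sham (0.0193). Of 9 same-numbered pairs of libraries 0 correlated over 0.1 (r from -0.22 to 0.0988). Differently numbered pairs were not compared, so this does not decide whether the numbers pair the libraries. With the replicate block, 4266 genes in place of 5176 were called in PT against sham, 2108 in place of 2718 in Pushen against sham and 0 in Pushen against PT, and Lyve1 in PT had an adjusted p of 0.0807. In Pushen against PT the count of all genes called, 0, was 49 with DESeq2, 1 with only the groups compared, 2 without PT library 1 and Pushen library 2, and 0 to 5 with 1 library left out. With 1 library left out it ranged from 3198 to 5799 in PT against sham and from 1538 to 3736 in Pushen against sham. Leaving out 1 library gave 6 to 11 other scavenger receptors, 1 to 4 hyaluronan genes, 4 to 7 microglia genes and 3 to 6 endothelial genes. Monocyte genes fell to 3 at a filter of 1 FPKM, and microglia genes to 4 without PT library 1 and Pushen library 2. Against the microglia genes in place of Csf1r, PT was 4.19, 38.4, 23.0, 2.87, 2.66 and 60.8 times sham for Mrc1, Cd36, Msr1, F13a1, Stab1 and Folr2, and 1.85, 2.30 and 2.13 for Cd163, Lyve1 and Pf4. Counts in place of FPKM, chosen after the data were seen, gave 18.5, 10.1 and 21.0 times Csf1r-relative sham for Cd36, Msr1 and Folr2. Pparg in PT turned to -0.0064 without the filter and ranged from -0.092 to 0.12 with 1 library left out, being below 0 at -0.04 without sham library 2. In Pushen against PT, Msr1 ranged from -0.38 to 0.32 and Lyve1 from -0.75 to 0.0066 with 1 library left out; the cause was not tested. With a prior count of 0.5, 18 of 21 most similar genes were shared. Sham counts of 9 (Folr2), 42 (Msr1), 59 (Cd36) and 65 (Pf4) over 3 libraries limit these folds.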
